A study of Mus musculus with 15 samples.

Results

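The genes described here are 10 chaperone and co-chaperone genes of the heat shock response, Hspa1a, Hspa1b, Hspa8, Hsph1, Hsp90aa1, Hsp90ab1, Dnajb1, Bag3, Hspd1 and Hspe1, followed across nontreated and silica nanoparticle-treated RAW 264.7 cells, a mouse macrophage line. They were chosen by name, with earlier results of these data known. All 10 were present among the 57186 genes of the count table, and all 10 passed the filter on low counts that kept 19839 genes for testing. RNA sequencing was performed on 15 libraries in 5 groups of 3. The groups were nontreated controls and cells dosed for 6 h with SNP100 (nonporous, nominal diameter 100 nm, 50 µg/mL), SNP50 (nonporous, 50 nm, 25 µg/mL), MSNP (mesoporous, 100 nm, 200 µg/mL) or HMSNP (hollow mesoporous, 100 nm, 200 µg/mL). Only MSNP and HMSNP were given at the same dose, so the other comparisons between particles differ in dose as well as in structure.

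Heat shock proteins bind unfolded or partly folded proteins and keep them from aggregating. In resting cells the transcription factor HSF1 is held inactive by chaperones, and when misfolded proteins engage those chaperones HSF1 is released, forms a trimer and binds heat shock elements, inverted repeats of the unit GAA, in the promoters of chaperone genes. Inducible HSP70, the product of Hspa1a and Hspa1b, is the classical readout of this response, while Hspa8 and Hsp90ab1 encode abundant constitutive chaperones that every cell uses. The products of 8 of the 10 genes work mainly in the cytosol and nucleus. Hspd1 and Hspe1 encode HSP60 and HSP10, the chaperonin and co-chaperonin of the mitochondrial matrix, so the set is not wholly cytosolic.

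Total counts per library lay between 29369934 and 42617812. The library names in the labels carry a different number prefix for each group, whose meaning is not stated, so whatever the prefix marks and the treatment cannot be told apart. No source used here says that the 3 libraries of a group came from separate cultures, and p-values therefore measure only the spread between these libraries. Control replicate 3 stood apart from the other controls. Against the mean of the other 2 controls, the median log2 difference in it was 0.70 in the shortest of 10 bins of transcript length and -0.86 in the longest. The chi-square statistic per gene was 192 and 226 between Control replicate 3 and the other controls, and 73.1 between Control replicates 1 and 2. It was at most 15.3 between pairs of any treated group. For the 10 genes and counts over lists of related genes, most results against the controls are therefore also given without Control replicate 3. The 2 controls left then still differed from each other more than treated replicates did. Of 10 macrophage markers, 9 had a mean above 1 CPM (counts scaled to library size), and their sum was 13486 to 14446 CPM in MSNP and 15861 to 20480 CPM in the other groups. Fibroblast markers summed to at most 0.0889 CPM in any library, with Col1a2, Col3a1, Dcn and Lum at 0 in all 15, and epithelial markers to at most 0.0296 CPM, with Epcam, Krt18 and Krt19 at 0. Endothelial markers summed to 8.36 to 10.3 CPM in MSNP and 2.63 to 5.75 CPM elsewhere, nearly all of it Vwf, and lymphocyte markers to 0.351 to 0.397 CPM in MSNP and at most 0.218 CPM elsewhere. Neutrophil markers summed to 1.42 to 3.33 CPM, with S100a9, Ly6g and Camp at 0. The part of these differences in the chaperone values was not tested. In bulk RNA, fewer cells of a kind and less RNA per cell cannot be told apart.

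The upstream sequences of the HSP70 pair and of the HSP60 and HSP10 pair are shown. These promoters carry heat shock elements, and the first pair carried the largest difference in the set. Hsph1 also holds a heat shock element, and its upstream sequence is not printed. Hspa1b and Hspa1a are neighbouring single-exon genes on the minus strand, at chr17:35175412-35178214 and chr17:35188166-35191132 of GRCm39. The 250 bases before the annotated start of each transcript, which overlap no annotated exon, are given 5′ to 3′ on the transcribed strand. Capitals mark a heat shock element of 2 facing units (GAANNTTC or its other phase, TTCNNGAA).
Hspa1b upstream, chr17:35178215-35178464: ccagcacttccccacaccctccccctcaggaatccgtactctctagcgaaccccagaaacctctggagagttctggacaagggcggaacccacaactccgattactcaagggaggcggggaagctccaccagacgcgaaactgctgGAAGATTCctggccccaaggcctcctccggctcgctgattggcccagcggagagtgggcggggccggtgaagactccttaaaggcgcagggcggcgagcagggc
Hspa1a upstream, chr17:35191133-35191382: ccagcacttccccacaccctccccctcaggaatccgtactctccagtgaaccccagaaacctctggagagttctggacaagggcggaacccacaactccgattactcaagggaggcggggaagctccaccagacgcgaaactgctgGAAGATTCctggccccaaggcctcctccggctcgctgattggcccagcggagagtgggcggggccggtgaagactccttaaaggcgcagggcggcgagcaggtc
The 2 stretches differed at 3 of 250 positions, and in both the element began 104 bases before the start and ended 97 bases before it.

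Hspd1 (minus strand) and Hspe1 (plus strand) are transcribed away from each other on chromosome 1, with 107 bases between the starts of their canonical transcripts. Other annotated transcripts of both genes have exons in this stretch. The stretch is printed on the plus strand. Capitals mark 18 bases in which 3 overlapping elements of 2 units join into an unbroken run of units (GAA in alternating orientation, 2 bases apart). Only elements of 2 and of 3 units were searched for, and the run is longer than 3 units.
Between Hspd1 and Hspe1, chr1:55127184-55127290: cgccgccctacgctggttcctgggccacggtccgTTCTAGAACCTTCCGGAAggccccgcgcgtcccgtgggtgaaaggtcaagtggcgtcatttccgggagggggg
Of the 10 genes, 5 held a 2-unit element in the 250 bases before the start (Hspa1a, Hspa1b, Hsph1, Hspd1 and Hspe1), against 12.3% of 21770 protein-coding promoters of that length and 10.9% of the 13135 that were tested. Elements of 3 units stood before Hspd1 and Hspe1, which share the stretch, and before 0.349% of all these promoters. The Hspa1a and Hspa1b windows are near-identical and the Hspd1 and Hspe1 elements are shared, so these sequences are not independent. The genes were chosen as heat shock genes, so these shares describe them and are no test. The exact letters were not found in that window of Hspa8, Hsp90aa1, Hsp90ab1, Dnajb1 or Bag3, which says nothing of binding elsewhere.

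Several of the genes have near-identical copies whose reads a counting program may divide. The coding sequences of Hspa1a and Hspa1b matched at 99.6% of aligned bases, with 8 mismatches, and 40.5% of all 150-base windows of the Hspa1b transcript also occurred in Hspa1a. For Hspa8, 55.4% of windows occurred in another gene, mostly the processed pseudogene Gm15459, which was listed with 329359 counts over the 15 libraries, equal to 32.0% of the Hspa8 counts. Windows shared with other genes made up 33.5% of Hsp90aa1, 18.6% of Hspd1, 14.1% of Hspe1, 13.7% of Bag3 and 1.88% of Hsp90ab1, and none of Hsph1 or Dnajb1. The coding sequences of Hsp90aa1 and Hsp90ab1 matched at 76.4% of aligned bases, those of Hspa1b and Hspa8 matched at 74.6%, and these pairs shared no 150-base window. Hsp90ab1 overlaps Slc35b2, Hspd1 overlaps Hspe1 and Mob4, Bag3 overlaps 4921520J07Rik, Hsph1 overlaps Gm20005 and Hspa1a overlaps Gm20481, and the strand setting of the counting was not stated.

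The 10 genes together took 0.629% to 0.712% of all counts in a library. On the scale of CPM per kilobase of transcript, averaged over the 15 libraries, Hsp90ab1 was highest at 914 and Hspa8 followed at 813, then Hspd1 at 392, Hsp90aa1 at 215 and Hspe1 at 173. Hsph1 stood at 48.8, Bag3 at 29.9, Dnajb1 at 14.8, Hspa1b at 5.84 and Hspa1a at 0.144. The constitutive chaperones were therefore the most abundant and the inducible HSP70 pair the least. Hspa1a was counted at 5 to 34 reads per library and Hspa1b at 234 to 1065.

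**Figure D1:**
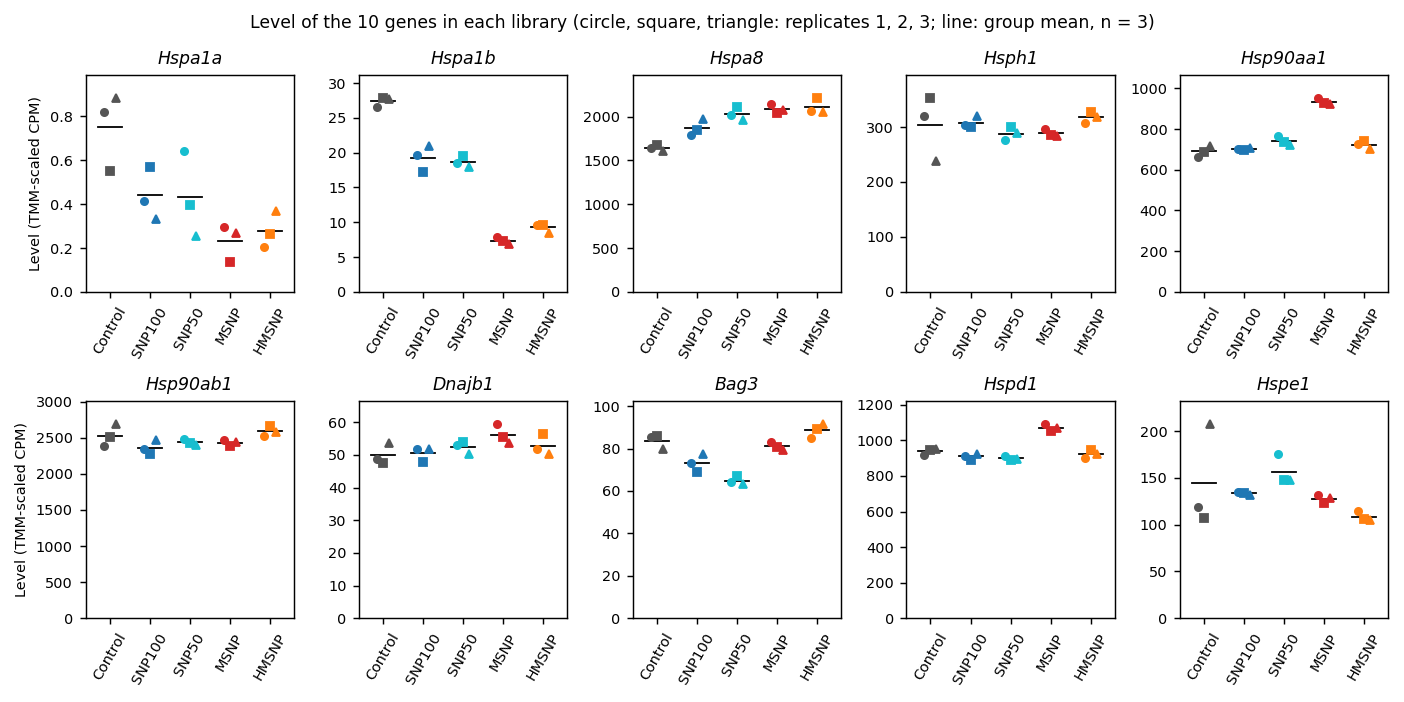
Level of each gene in TMM-scaled CPM (y axis, from 0, a scale per panel) in the 15 libraries by group (x axis), with symbols for replicates 1 to 3 and a line at the group mean. Hspa1b stepped down from a mean of 27.4 CPM in the controls to 7.34 in MSNP, Hsp90aa1 stood highest in MSNP, and Control replicate 3 lay apart for Hspe1 and Hsph1.

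The first question was how each particle changed the chaperone genes relative to nontreated cells. All treated groups were set against the same 3 controls, so the comparisons share that source of error. By the quasi-likelihood test of edgeR, with p-values adjusted by the Benjamini-Hochberg method over all genes tested, 1 of the 10 genes passed 0.05 after SNP100, where it fell (Hspa1b). The share of all genes called there was 0.912%, with 0.509% higher and 0.403% lower. SNP50 had 1 gene that rose (Hspa8) and 2 that fell (Hspa1b and Bag3), against 1.41% of all genes, 0.454% higher and 0.958% lower. MSNP had 3 that rose (Hspa8, Hsp90aa1 and Hspd1) and 2 that fell (Hspa1a and Hspa1b), against 22.8% of all genes, 11.8% higher and 11.0% lower. HMSNP had 1 that rose (Hspa8) and 2 that fell (Hspa1a and Hspa1b), against 5.16% of all genes, 2.46% higher and 2.70% lower. The directions were mixed within the set, and the median log2 fold change of the 10 genes was -0.07 for SNP100, -0.06 for SNP50, -0.05 for MSNP and 0.05 for HMSNP, beside -0.02, -0.0017, -0.05 and -0.04 over all genes tested.

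Without Control replicate 3, the counts of risen and fallen genes became 1 and 2 after SNP100, 3 and 3 after SNP50, 5 and 3 after MSNP, 1 and 1 after HMSNP, while the shares of all genes became 5.16%, 18.9%, 29.5% and 8.66%. Of all genes, 2.84% were then higher and 2.32% lower after SNP100, 9.63% and 9.30% after SNP50, 16.3% and 13.2% after MSNP, 4.47% and 4.20% after HMSNP. The libraries of the treated group and the controls did not overlap for 3 genes with SNP100, 5 with SNP50, 6 with MSNP and 3 with HMSNP, against 12.5%, 14.1%, 33.2% and 22.9% of all genes. Fits restricted to the 6 libraries of a comparison, where the spread of the controls weighs more, called none of the 10 in SNP100 or SNP50, 1 in HMSNP and 4 in MSNP. Of all genes they called 0% in SNP100, 0.00574% in SNP50, 0.439% in HMSNP and 13.0% in MSNP, so most calls outside MSNP were lost along with those of the 10 genes, while the log2 change of Hspa1b was still -0.51 in SNP100 and -0.56 in SNP50. At an unadjusted p under 0.05, those fits held 2 genes in SNP100 and 3 in SNP50. The share of all genes at that unadjusted level is not given here. By adjusted p, DESeq2 with all libraries called 2 in SNP100, against 3.96% of all genes.

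**Figure D2:**
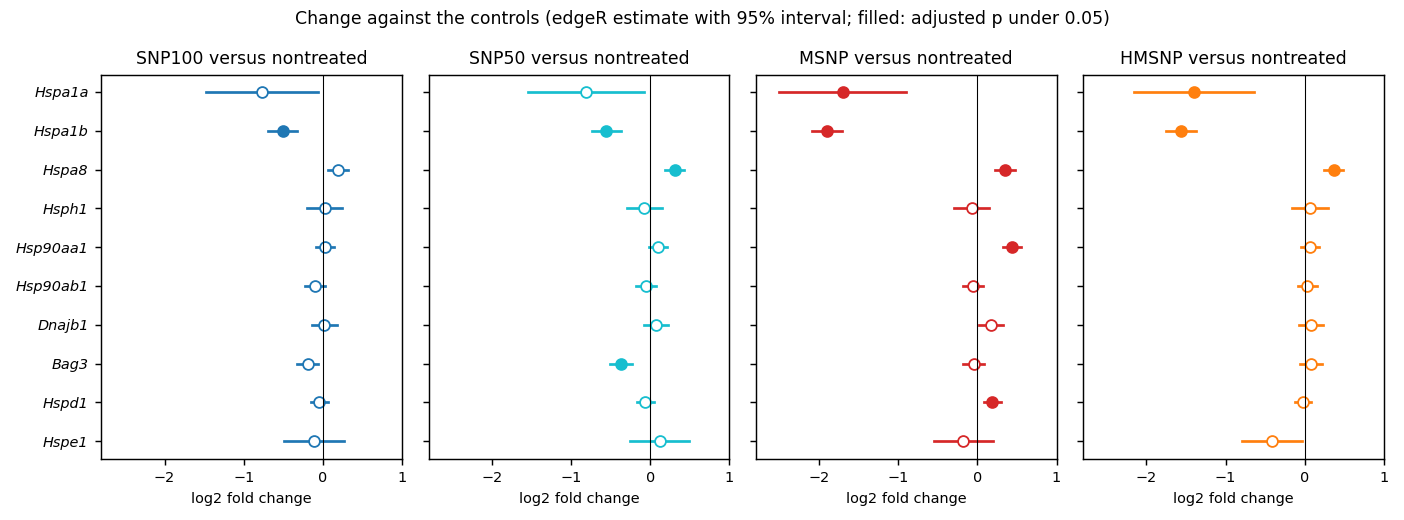
Log2 fold change of the 10 genes (y axis) against the controls in each treated group (a panel each, x axis in log2 units), as edgeR estimates with 95% intervals and filled symbols for an adjusted p under 0.05. The Hspa1b interval lay below 0 in all 4 panels and reached -2.09 to -1.71 in MSNP, while the Hsp90ab1 interval covered 0 in all 4.

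The RNA of inducible HSP70, mostly Hspa1b, was lower, not higher, in the treated cells. These data hold no measure of HSP70 protein. Hspa1b was at 26.6, 27.9 and 27.7 CPM in the controls, from 872, 964 and 1065 reads. It was at 19.6, 17.1 and 20.9 CPM in SNP100 and at 18.5, 19.5 and 17.9 CPM in SNP50. The porous particles gave 7.83, 7.26 and 6.94 CPM in MSNP, from 237, 269 and 234 reads, and 9.67, 9.65 and 8.48 CPM in HMSNP. Every treated library lay below every control, every MSNP and HMSNP library lay below every SNP100 and SNP50 library, and MSNP lay below HMSNP without overlap. SNP100 and SNP50 overlapped.

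The log2 fold change of Hspa1b against the controls was -0.51 in SNP100 (SE 0.0847, adjusted p = 0.00811 by edgeR's quasi-likelihood test) and its change in SNP50 was -0.56 (SE 0.0851, adjusted p = 0.00484). Hspa1b fell by 73.2% in MSNP, a log2 change of -1.90 (SE 0.0899, edgeR adjusted p = 6.76e-10), and it fell by 66.2% in HMSNP, a log2 change of -1.56 (SE 0.0879, adjusted p = 9.08e-08). The MSNP and HMSNP calls held under all 25 alternative settings. The SNP100 and SNP50 calls did not hold in fits of 6 libraries (edgeR adjusted p = 0.504 and 0.373), nor the SNP100 call without SNP100 replicate 2 (adjusted p = 0.0598). Without Control replicate 3 the log2 changes were close to these, at -0.50, -0.55, -1.88 and -1.56 in the same order.

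The near-identical copy Hspa1a moved the same way at a far lower level. Its levels were 0.822, 0.549 and 0.885 CPM in the controls, from 27, 19 and 34 reads. They were 0.297, 0.135 and 0.267 CPM in MSNP, from 9, 5 and 9 reads, and 0.206, 0.265 and 0.367 CPM in HMSNP, from 7, 10 and 16 reads. Both porous-particle groups lay below the controls without overlap, whereas SNP100 (0.332 to 0.572 CPM) and SNP50 (0.256 to 0.641 CPM) overlapped them. Hspa1a fell in MSNP (log2 change -1.70, SE 0.376, edgeR adjusted p = 0.00363) and in HMSNP (-1.40, SE 0.353, adjusted p = 0.0343). The HMSNP call on these few reads held under 14 of 24 alternative settings and in 8 of 15 fits that left out 1 library. The edgeR adjusted p was 0.189 in the fit of 6 libraries, 0.138 without HMSNP replicate 1, 0.122 without HMSNP replicate 2, 0.0532 with a replicate block and 0.0525 without Control replicate 3. The MSNP call held under all 24, with a log2 change of -1.56 without Control replicate 3. Counts of Hspa1a per 100 of Hspa1b were 2.75 ± 0.679 (SD, n = 3) in the controls and 3.17 ± 1.13 in MSNP. When the counts of the copies were added to Hspa1b, its log2 change was -1.90 in MSNP and -1.56 in HMSNP.

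Hspa8, the constitutive cytosolic HSP70 that binds nascent and client proteins, was somewhat higher in all treated groups. Its levels were 1636, 1676 and 1603 CPM in the controls, 1791, 1846 and 1973 in SNP100 and 2017, 2113 and 1959 in SNP50. MSNP libraries had 2141, 2036 and 2073 CPM, and HMSNP libraries 2059, 2215 and 2058. Every treated library lay above every control, and the MSNP, HMSNP and SNP50 groups overlapped one another. Hspa8 rose in SNP50 (log2 change 0.31, SE 0.0582, edgeR adjusted p = 0.0157), in MSNP (0.35, SE 0.0582, adjusted p = 0.000386) and in HMSNP (0.37, SE 0.0582, adjusted p = 0.00169). In SNP100 the change was 0.19 with an edgeR adjusted p of 0.195. The calls in SNP50 and HMSNP were lost in fits of 6 libraries (edgeR adjusted p = 0.642 and 0.217), and that in SNP50 also without any 1 of its 3 libraries (adjusted p up to 0.1002). Without Control replicate 3 the changes were 0.17, 0.29, 0.34 and 0.35 in SNP100, SNP50, MSNP and HMSNP, with the same 3 groups called and an edgeR adjusted p of 0.0571 in SNP100. Adding the pseudogene copies gave 0.34 in SNP50, 0.40 in MSNP and 0.42 in HMSNP. Gm15459 alone was at 468 ± 138 CPM (SD, n = 3) in the controls and 688 ± 13.1 CPM in MSNP.

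The inducible and constitutive HSP70 genes can be set against each other inside each library, which removes library size. There were 1.67 ± 0.0537 counts of Hspa1b per 100 of Hspa8 in the controls (SD, n = 3). The nonporous particles gave 1.03 ± 0.0885 (SNP100) and 0.918 ± 0.0047 (SNP50), and the porous particles 0.352 ± 0.0161 (MSNP) and 0.439 ± 0.0289 (HMSNP). The groups kept the order controls, SNP100, SNP50, HMSNP, MSNP, and no 2 groups overlapped. These ratios combine a fall of Hspa1b with the smaller rise of Hspa8.

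**Figure D3:**
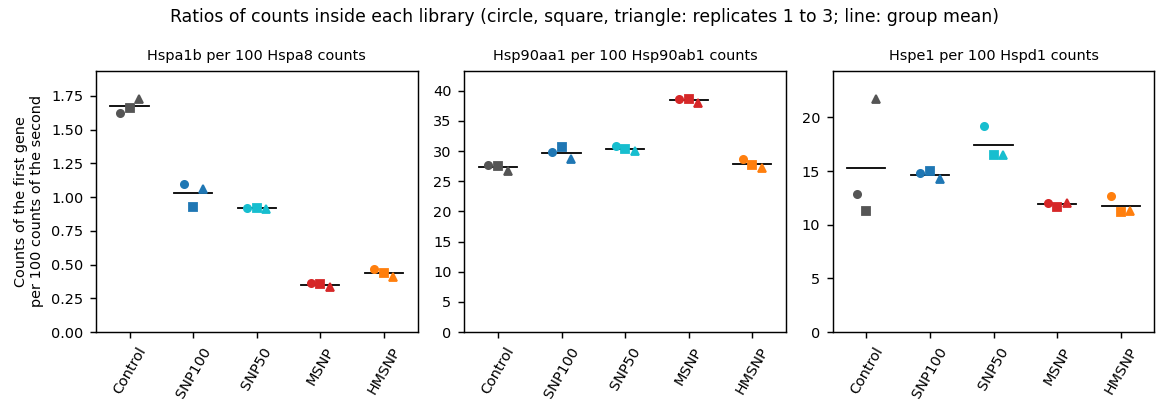
Counts of a gene per 100 counts of its partner in each library (y axis, from 0) by group (x axis), with symbols for replicates and lines at group means. Hspa1b per 100 Hspa8 went from 1.67 in the controls to 0.352 in MSNP, Hsp90aa1 per 100 Hsp90ab1 was 38.4 in MSNP and 27.3 to 30.4 elsewhere, and Hspe1 per 100 Hspd1 was set apart in Control replicate 3.

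The HSP90 genes encode the chaperone that completes the folding of kinases and steroid receptors, with Hsp90aa1 the stress-inducible and Hsp90ab1 the constitutive form. Hsp90aa1 was at 663, 690 and 716 CPM in the controls, 702, 698 and 708 in SNP100, 764, 735 and 721 in SNP50 and 727, 741 and 703 in HMSNP. In MSNP it was at 953, 926 and 924 CPM. The MSNP libraries lay above all 12 others, and HMSNP overlapped the controls. Hsp90aa1 rose by 35.5% in MSNP (log2 change 0.44, SE 0.053, edgeR adjusted p = 1.60e-05), and the call held under all 25 alternative settings. Its log2 changes were 0.03, 0.10 and 0.07 in SNP100, SNP50 and HMSNP, none of which passed the test (edgeR adjusted p = 0.874, 0.476 and 0.435). Without Control replicate 3 they were 0.05, 0.13 and 0.10, of which that in SNP50 passed (edgeR adjusted p = 0.0401), and the change in MSNP was 0.47.

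Hsp90ab1 gave no call in any comparison by edgeR with all 15 libraries. In HMSNP relative to SNP100 its log2 difference of 0.13 (edgeR adjusted p = 0.256) passed in 5 of 25 alternative settings, among them DESeq2 (adjusted p = 0.0389) and edgeR without Control replicate 3 (adjusted p = 0.0182). In HMSNP relative to MSNP the difference of 0.09 (edgeR adjusted p = 0.333) passed in 4 of 25. No alternative called it against the controls. Its group means were 2529 ± 152 CPM in the controls (SD, n = 3), 2362 ± 94.6 with SNP100 and 2436 ± 42.9 with SNP50. They were 2433 ± 39.3 with MSNP and 2591 ± 70.5 with HMSNP. Treated and control libraries overlapped in every group, and the 95% intervals of its log2 change ran from -0.22 to 0.02 in SNP100, from -0.18 to 0.07 in MSNP and from -0.09 to 0.16 in HMSNP. The pair therefore shifted in composition in MSNP, with 38.4 ± 0.419 counts of Hsp90aa1 per 100 of Hsp90ab1, against 27.3 ± 0.593 in the controls, 27.9 ± 0.752 in HMSNP, 29.8 ± 0.969 in SNP100 and 30.4 ± 0.37 in SNP50.

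Among Bag3, Dnajb1 and Hsph1, the co-chaperones of HSP70, only Bag3 gave a call against the controls with all libraries, in SNP50. Bag3 encodes a nucleotide exchange factor that links HSP70 to selective autophagy, and it is a usual HSF1 target. Bag3 was at 85.5, 85.8 and 80.0 CPM in the controls, 73.2, 68.9 and 77.5 in SNP100 and 64.4, 66.8 and 63.1 in SNP50. It was at 83.1, 80.6 and 79.5 CPM in MSNP and at 85.1, 89.1 and 91.5 in HMSNP. The nonporous-particle libraries lay below all the controls and the porous-particle libraries overlapped them. Bag3 fell in SNP50 (log2 change -0.37, SE 0.0634, edgeR adjusted p = 0.00936), a call lost in the fit of 6 libraries (adjusted p = 0.561) and without SNP50 replicate 1, SNP50 replicate 3 or Control replicate 1 (adjusted p up to 0.0777). In SNP100 its change was -0.19 (edgeR adjusted p = 0.24), and -0.23 without Control replicate 3 (adjusted p = 0.018).

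Dnajb1 encodes the main stress-inducible HSP40, which delivers substrates to HSP70 and stimulates its ATPase. Its libraries ranged from 47.4 to 53.6 CPM in the controls and from 53.8 to 59.5 CPM in MSNP. The MSNP libraries lay just above the controls, and the log2 change of 0.17 missed the threshold (SE 0.0725, edgeR adjusted p = 0.109), though it passed without Control replicate 3 (0.23, adjusted p = 0.00802). In SNP100, SNP50 and HMSNP the changes were 0.02, 0.07 and 0.08 and the libraries overlapped the controls.

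Hsph1 encodes HSP110, which is an exchange factor for HSP70. It was at 319, 353 and 238 CPM in the controls, and between 276 and 328 CPM in all 12 treated libraries. Control replicate 3 was the lowest and Control replicate 2 the highest of the 15. None of the changes against the controls passed the test, the largest being -0.07 in SNP50 and MSNP (edgeR adjusted p = 0.856 and 0.66). Without Control replicate 3, Hsph1 fell in SNP50 (-0.23, edgeR adjusted p = 0.00589) and in MSNP (-0.21, adjusted p = 0.00443).

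Of the mitochondrial pair, which share the printed stretch with the 3-unit elements, Hspd1 alone passed the test against the controls, and whether the 2 genes differ was not tested. Hspd1 was at 918, 946 and 954 CPM in the controls, 914, 893 and 925 in SNP100 and 912, 890 and 896 in SNP50. It was at 1092, 1053 and 1067 CPM in MSNP and 903, 947 and 927 in HMSNP. The MSNP libraries were the highest of the 15. Hspd1 rose in MSNP (log2 change 0.19, SE 0.0495, edgeR adjusted p = 0.0114), a call lost in the fit of 6 libraries (adjusted p = 0.186), and its changes in the other groups were between -0.06 and -0.02 with adjusted p of at least 0.697. Without Control replicate 3 the change in MSNP was 0.21 (edgeR adjusted p = 0.00040), and the other groups still had no call.

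Hspe1 was at 118, 107 and 207 CPM in the controls, from 3889, 3698 and 7968 reads. Its levels were 135, 134 and 132 CPM in SNP100 and 175, 147 and 148 in SNP50. The porous particles gave 132, 123 and 128 CPM (MSNP) and 115, 106 and 104 CPM (HMSNP). Control replicate 3 was the highest of all 15 libraries, and no change against the controls passed the test. Without it Hspe1 rose in SNP100 (log2 change 0.24, edgeR adjusted p = 0.0477), SNP50 (0.47, adjusted p = 0.000217) and MSNP (0.19, adjusted p = 0.0482), and in HMSNP its change was -0.06 (adjusted p = 0.696). With all controls but an offset for transcript length, the log2 changes were 0.048, 0.15, 0.14 and -0.068 and none passed. Counts of Hspe1 per 100 of Hspd1 were 15.3 ± 5.63 in the controls, 17.4 ± 1.56 in SNP50, 14.7 ± 0.408 in SNP100, 11.9 ± 0.213 in MSNP and 11.7 ± 0.855 in HMSNP.

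Hspe1 and Hsph1 have the shortest and the longest transcripts of the set, 774 and 6178 bases. In Control replicate 3 Hspe1 was 0.88 above and Hsph1 0.50 below the other controls on the log2 scale. The trend of all genes with transcript length in that library gave 0.59 and -0.47 at those lengths. The trend was measured from the mean of all 15 libraries, so the 2 kinds of value have different references. In Control replicates 1 and 2 the trend was -0.06 and -0.16 for Hspe1 and -0.01 and 0.12 for Hsph1. Hspa1b, of 2803 bases, differed by 0.03 where the trend gave 0.07. The other members differed by between -0.10 (Bag3) and 0.37 (Hspa1a).

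**Figure D4:**
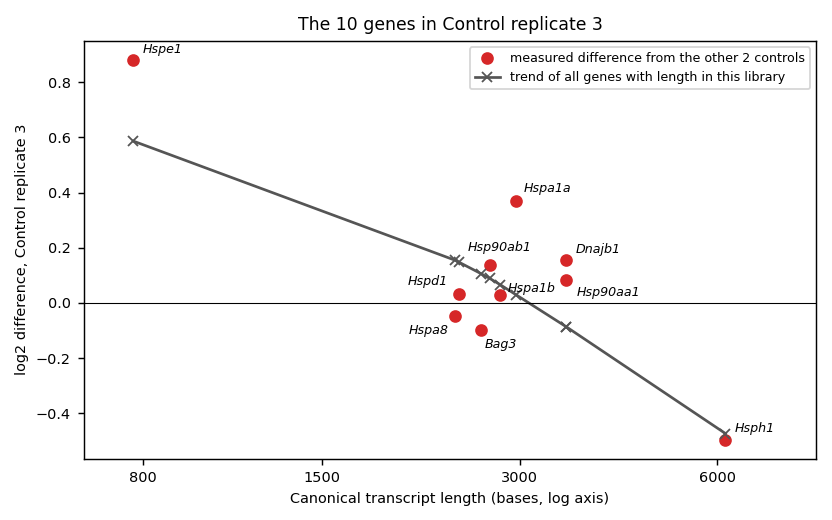
Log2 difference of each gene in Control replicate 3 from the other 2 controls (y axis) against canonical transcript length (x axis, bases, log scale). Crosses joined by a line give the trend of all genes in that library at each length, measured from the mean of all 15 libraries. Hspe1, the shortest at 774 bases, lay at 0.88 and Hsph1, the longest at 6178 bases, at -0.50, while Hspa1b lay at 0.03.

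The second question was whether the particles differed from one another. MSNP and HMSNP were matched in dose and nominal diameter and differ in the hollow core, and the study describes them as differing in density and surface composition too. Of the 10 genes, Hspa1b rose and Hsp90aa1 and Hspd1 fell in HMSNP relative to MSNP, against 20.2% of all genes called, 9.22% higher and 11.0% lower. Hsp90aa1 fell by 22.5% (log2 difference -0.37, SE 0.0529, edgeR adjusted p = 9.55e-05) and Hspd1 by 13.6% (-0.21, SE 0.0495, adjusted p = 0.00611), and both calls held under all 25 alternative settings. The Hspa1b difference was 0.34 (SE 0.0908, edgeR adjusted p = 0.0153), and it was lost without MSNP replicate 2, MSNP replicate 3, HMSNP replicate 1 or HMSNP replicate 2 (adjusted p up to 0.0719). Hspa8 did not pass, with a difference of 0.02 and a 95% interval from -0.11 to 0.14. Libraries of the 2 groups did not overlap for 7 of the 10 genes, against 45.3% of all genes.

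MSNP and SNP100 share the nominal diameter, but MSNP was given at 200 µg/mL and SNP100 at 50 µg/mL. Hsp90aa1 (log2 difference 0.41, edgeR adjusted p = 4.06e-05) and Hspd1 (0.23, adjusted p = 0.00334) rose and Hspa1b (-1.39, SE 0.0896, adjusted p = 2.85e-08) fell, against 17.9% of all genes called, 10.4% higher and 7.53% lower. In HMSNP against SNP100, Hspa1b fell (-1.06, SE 0.0877, edgeR adjusted p = 4.65e-06) and Bag3 rose (0.28, SE 0.0632, adjusted p = 0.0202), against 4.52% of all genes, 2.32% higher and 2.20% lower, where DESeq2 called 4 of the 10 and 10.2% of all genes. The Bag3 call was lost without SNP100 replicate 1 or 2 or HMSNP replicate 2 or 3 (adjusted p up to 0.106). Groups did not overlap for 9 of the 10 genes between MSNP and SNP100 and for 5 between HMSNP and SNP100, against 45.6% and 37.1% of all genes. All 3 contrasts that include SNP100 use the same 3 SNP100 libraries.

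SNP50 and SNP100 differed in size and in dose, 25 against 50 µg/mL. By edgeR's quasi-likelihood test 0 of the 10 genes and 0% of all genes passed, and DESeq2 called 0 of the 10 and 0.00504% of all genes. At an unadjusted p under 0.05 there was 1 of the 10 with either tool. With edgeR it was Bag3 (log2 difference -0.18, 95% interval -0.31 to -0.04, adjusted p = 0.903). The share of all genes at that unadjusted level is not given here, so the count is not read as a result about the set. The interval of the Hspa1b difference was -0.23 to 0.14 and that of Hspa8 -0.01 to 0.24, which are the differences that these data leave possible. Groups did not overlap for 4 of the 10, against 23.9% of all genes.

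Other genes of the chaperone network were taken from lists of genes and counted by the same test. Values of single listed genes are with all controls unless stated. Whether their calls held without Control replicate 3 is otherwise not given here. Of 5 heat shock factors and regulators, Hsf1 was at 53.7 CPM in the controls and 46.8 in MSNP (log2 change -0.20, edgeR adjusted p = 0.147), and Hsf2 at 21.0 and 19.8 (-0.09, adjusted p = 0.499). Hsf2bp, which encodes an HSF2-binding protein, fell in MSNP from 1.08 ± 0.248 to 0.320 ± 0.0718 CPM (SD, n = 3; log2 change -1.76, edgeR adjusted p = 0.000223), and no other gene of the list passed against the controls.

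Of 17 other HSF1-responsive genes that were tested, 1 rose and 0 fell in SNP100, and the same counts held in SNP50. In MSNP 7 rose and 2 fell, against 11.8% and 11.0% of all genes, and in HMSNP 0 rose and 1 fell. The list's median log2 change in MSNP was 0.14, beside -0.05 over all genes. Zfand2a, the gene of the arsenite-inducible zinc finger protein AIRAP that acts with the proteasome, rose in 3 groups. It went from 49.99 ± 6.78 CPM in the controls to 75.0 ± 4.53 in SNP100 (log2 change 0.59, edgeR adjusted p = 0.00398), 65.6 ± 3.01 in SNP50 (0.39, adjusted p = 0.0403) and 167 ± 2.62 in MSNP (1.74, adjusted p = 1.33e-09). In HMSNP it was 59.4 ± 1.55 CPM. Ier5, an immediate early gene whose product acts on HSF1, rose in MSNP from 35.6 ± 7.97 to 60.2 ± 1.16 CPM (0.76, edgeR adjusted p = 0.000177). The small heat shock protein gene Hspb8 rose there from 0.151 to 0.527 CPM (1.76, edgeR adjusted p = 0.0167). Both Hspb8 means were low, so its fold rests on few reads.

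Cacybp fell in MSNP (-0.29, edgeR adjusted p = 0.0447), a call lost without Control replicate 3 (adjusted p = 0.0758), and Hspa4l, an HSP110 relative, fell in HMSNP (-0.77, adjusted p = 0.0319). Hspa1l, the third HSP70 gene beside Hspa1a and Hspa1b, was among those called lower in MSNP, but it held at most 3 reads in any control and 0 in MSNP, so no fold is given. Between HMSNP and MSNP 0 of the 17 rose and 7 fell, against 9.22% and 11.0% of all genes, with Zfand2a at -1.49, Hspb8 at -1.49 and Dedd2, a death effector domain gene, at -0.88 (edgeR adjusted p = 7.36e-09, 0.0348 and 1.76e-06). The Hspb8 value again rests on few reads. Within MSNP, Hspa1b therefore fell, while of the 17 other HSF1-responsive genes 7 rose, 2 fell and the rest had no call.

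The HSP70 and HSP40 partners (20 genes) gave 4 risen and 0 fallen in MSNP, where 11.8% of all genes rose and 11.0% fell, 0 and 1 in HMSNP, 0 and 1 in SNP100 (Dnajb2, log2 change -0.38, edgeR adjusted p = 0.0462), and no call in SNP50. Dnajb6, an HSP40 that suppresses aggregation, went both ways, from 133 ± 4.95 CPM in the controls up to 201 ± 4.25 in MSNP (0.60, edgeR adjusted p = 1.21e-06) and down to 112 ± 3.30 in HMSNP (-0.26, adjusted p = 0.0166). Dnaja2 (0.45, edgeR adjusted p = 1.91e-05) and St13, the HSP70-interacting protein HIP (0.34, adjusted p = 0.000122), also rose in MSNP. Among 14 HSP90 co-chaperones only MSNP gave calls, with Ppp5c up (0.24, edgeR adjusted p = 0.010) and Fkbp5 down (-0.42, adjusted p = 0.000549). Of 14 genes of the TRiC chaperonin and prefoldin, Pfdn5 fell in MSNP (-0.52, edgeR adjusted p = 0.0241) and none passed in the other 3 groups. Single calls among 14 genes are a share near that of all genes in MSNP.

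The 13 other mitochondrial chaperones and proteases gave calls against the controls in MSNP alone, where 6 rose and 0 fell with a list median of 0.13, against 11.8% of all genes higher and 11.0% lower. Lonp1, the matrix protease, went from 191 ± 24.9 to 306 ± 6.82 CPM (log2 change 0.68, edgeR adjusted p = 1.41e-05), Afg3l2 from 101 ± 11.7 to 160 ± 3.83 (0.66, adjusted p = 6.54e-06) and Hscb, a co-chaperone of iron-sulfur cluster assembly, from 18.2 ± 4.43 to 28.1 ± 0.680 (0.62, adjusted p = 0.00206). In HMSNP relative to MSNP 0 rose and 7 fell, against 9.22% and 11.0% of all genes, among them Hspa9, the mitochondrial HSP70 (-0.56, edgeR adjusted p = 2.48e-05).

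Chaperones of the endoplasmic reticulum belong to the unfolded protein response rather than to HSF1 and were counted as a neighbouring system. Of 14 genes, 0 passed in SNP100 and SNP50, 8 rose in MSNP and 5 rose in HMSNP, against 11.8% and 2.46% of all genes, with list medians of 0.26 and 0.19. Hspa5, which encodes BiP, went from 1369 ± 115 CPM in the controls (SD, n = 3) to 1875 ± 34.8 in MSNP (log2 change 0.45, edgeR adjusted p = 5.03e-05) and 1827 ± 53.2 in HMSNP (0.42, adjusted p = 0.000987). Dnajb9, an HSP40 of this compartment, rose in MSNP (0.51, edgeR adjusted p = 5.65e-05) and was lower in HMSNP than in MSNP (-0.60, adjusted p = 1.27e-05).

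Many list counts against the controls grew without Control replicate 3, as did the calls over all genes, from 22.8% to 29.5% in MSNP, from 1.41% to 18.9% in SNP50, from 5.16% to 8.66% in HMSNP and from 0.912% to 5.16% in SNP100. In MSNP, where 16.3% of all genes then rose and 13.2% fell, 9 of the other HSF1-responsive genes rose and 2 fell, 7 and 0 of the HSP70 and HSP40 partners, 4 and 1 of the HSP90 co-chaperones, 3 and 1 of the TRiC and prefoldin genes, 7 and 0 of the mitochondrial genes and 12 and 0 of the ER chaperones. SNP50, with 9.63% of all genes higher and 9.30% lower, then gave 6 risen and 2 fallen HSF1-responsive genes, 6 and 3 partners, 6 and 0 HSP90 co-chaperones, 5 and 0 TRiC and prefoldin genes, 4 and 2 mitochondrial genes and 7 and 1 ER chaperones, where with all controls these lists held 1 call in that group, Zfand2a. HMSNP gave 11 risen ER chaperones, 3 fallen mitochondrial genes and at most 2 fallen in any other list, and SNP100 gave at most 4 risen in a list.

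**Figure D5:**
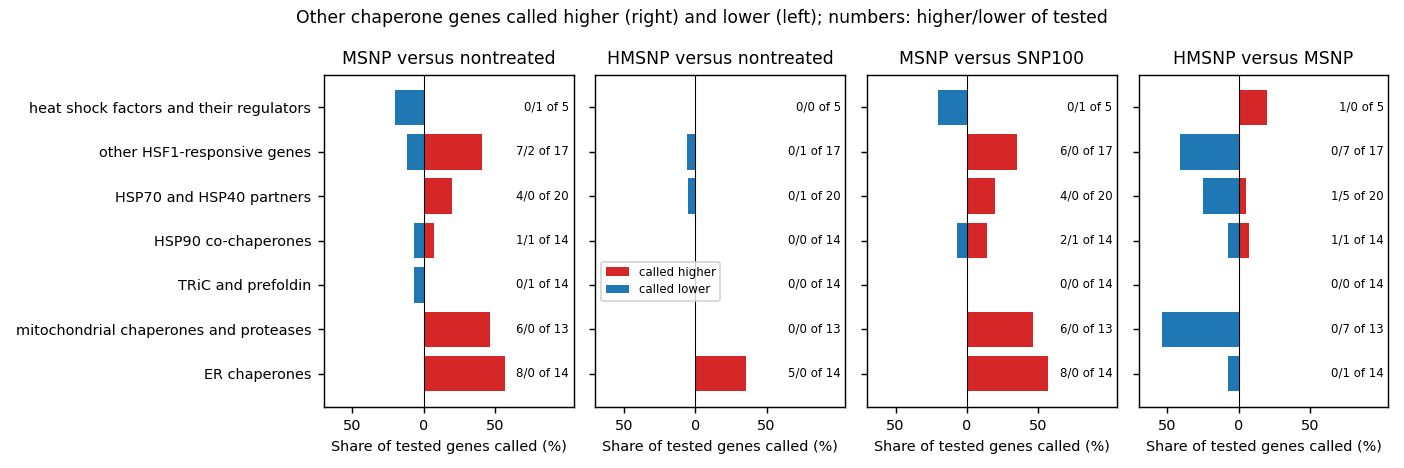
Share of each list's tested genes that were called higher (right, red) or lower (left, blue) in percent (x axis) for 7 lists of other chaperone genes (y axis) in 4 comparisons, with counts of higher and lower genes printed beside the bars. MSNP gave 7 higher of 17 other HSF1-responsive genes, 6 of 13 mitochondrial and 8 of 14 ER genes, while HMSNP against nontreated cells gave calls mainly among the ER genes (5 of 14).

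Genes whose 5 group means followed a member most closely were found by the root mean square distance of centred log2 CPM, over 8782 genes. For Hspa8 these were Nisch, Phrf1 and Zc3h18, at distances of 0.024, 0.034 and 0.036 where the Hspa8 means spanned 0.36. For Hspd1 they were Cox10, Zfand3 and Ccdc127 (0.0082, 0.010 and 0.012, span 0.25). Ccnt1, Pot1a and Depdc1a lay nearest to Hsph1 and 1110059E24Rik, Smug1 and Adam8 nearest to Dnajb1, at distances of at most 0.016 for these 6. The group means spanned only 0.14 for Hsph1 and 0.17 for Dnajb1. Over 5 points, such likeness describes how close the centred group means lay and nothing more, and the order of the groups can differ.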

How the data were processed

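The members and the gene lists were chosen with earlier results of these data known. The authors isolated poly(A) RNA for the 15 samples, prepared directional libraries and sequenced them in pairs. The submitters' processing notes name cutadapt 1.16, STAR 2.7.9a, featureCounts 1.6.3 and GRCm39. The annotation and the handling of strand and multiply mapped reads are not given in the sources used here. The deposited table holds raw whole-number counts per gene and library, not normalized. Groups came from the sample labels, and doses and time from the study's methods.

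Symbols, positions and transcript lengths were taken from GENCODE M39 on GRCm39, which holds 56630 of the 57186 identifiers. Genes with a summed count of at least 10 were tested in R 4.3.3 with edgeR 4.0.16 (TMM, one model of 15 libraries, quasi-likelihood test, Benjamini-Hochberg adjustment, threshold 0.05), a procedure tested on simulated counts. The study used DESeq2 for its own tests, and DESeq2 1.42.0 served as an alternative here. Levels are TMM-scaled CPM. Copies were searched as exact 150-base windows in all GENCODE transcripts, and heat shock elements as exact letters on both strands. All members are named, with up to 3 called genes per list and direction, and the 3 genes most like each of 4 members. Alternatives comprised RLE normalization, other count filters, 6-library fits, a replicate block, a length offset and leaving out each library.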

Additional observations from a re-analysis of the deposited data

How the results depend on the processing

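Counts here are of the 10 genes called. Leaving out 1 library gave 0 to 3 genes for SNP100 against the controls, 1 to 6 for SNP50, 5 to 8 for MSNP and 2 to 4 for HMSNP, 3 to 6 for MSNP against SNP100, 1 to 5 for HMSNP against SNP100, 2 to 5 for HMSNP against MSNP and 0 to 0 for SNP50 against SNP100. The highest count came without Control replicate 3 in each of these except HMSNP against the controls and SNP50 against SNP100. Calls over all genes against the controls also rose without it. They went from 0.912% to 5.16% in SNP100, from 1.41% to 18.9% in SNP50 and from 22.8% to 29.5% in MSNP. Shares of all genes for the other left-out libraries, and for particle against particle, are not given here. Fits of only 6 libraries gave 0, 0 and 1 for SNP100, SNP50 and HMSNP against the controls. Of all genes they called 0%, 0.00574% and 0.439% there. Between particles, these fits gave 6 for MSNP against SNP100, 5 for HMSNP against SNP100 and 7 for HMSNP against MSNP. Calls over all genes in those 6-library fits were 7142, 4727 and 7142. DESeq2 gave 2 for SNP100 against the controls and 4 for HMSNP against SNP100, where no filter on low counts gave 1. The length offset gave 5 for HMSNP against MSNP, where it called 5355 of all genes.

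Another 3 alternatives were chosen after seeing the data. The length offset with Control replicate 3 left out gave 2, 5 and 8 for SNP100, SNP50 and MSNP against the controls, 1 for SNP50 against SNP100, 6 for MSNP against SNP100, 5 for HMSNP against SNP100 and 7 for HMSNP against MSNP. The length offset in fits of 6 libraries gave 0, 0 and 1 for SNP100, SNP50 and HMSNP against the controls, 6 for MSNP against SNP100, 4 for HMSNP against SNP100 and 7 for HMSNP against MSNP. Shares of all genes under these combined settings are not given here, so their counts are not read as results about the set. Adding the counts of copies kept every count within 1.5 times. Over all genes, calls for SNP100, SNP50, MSNP and HMSNP against the controls numbered 181, 280, 4527 and 1024. DESeq2 gave 496, 680, 4969 and 1945, the length offset 537, 933, 5681 and 2033, and fits of 6 libraries 0, 1, 2257 and 77. Fits of 6 libraries gave 7142 for MSNP against SNP100, 4727 for HMSNP against SNP100 and 7142 for HMSNP against MSNP, where all libraries gave 3549, 897 and 4010. DESeq2 gave 1395 and the offset 1760 for HMSNP against SNP100. The causes of these changes were not tested.

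Reversals of direction came with the length offset and with left-out libraries, none of them from one called direction to the other. With the offset, log2 changes in SNP100 against the controls became -0.089 for Hsph1, -0.0018 for Dnajb1 and 0.048 for Hspe1, those in HMSNP -0.14 for Hsph1 and 0.041 for Hspd1, that of Hspe1 in MSNP 0.14, that of Hspe1 between MSNP and SNP100 0.088, and that of Hsph1 between HMSNP and SNP100 -0.047. With Control replicate 3 also left out, Hsph1 gave -0.080 in SNP100, -0.13 in HMSNP and -0.046 between HMSNP and SNP100, and Hspe1 0.12 in SNP100, 0.20 in MSNP and 0.087 between MSNP and SNP100. With the offset in fits of 6 libraries, Hsph1 gave -0.084, -0.14 and -0.046, Hspe1 0.047, 0.13 and 0.086 in the same order, Dnajb1 -0.000776 in SNP100 and Hspd1 0.034 in HMSNP.

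With 1 library left out, the log2 change against the controls ran from -0.13 to 0.15 for Hsph1 in SNP100, -0.23 to 0.047 in SNP50, -0.21 to 0.049 in MSNP and -0.082 to 0.21 in HMSNP. For Hspe1 it ran from -0.28 to 0.24 in SNP100, -0.055 to 0.47 in SNP50 and -0.35 to 0.19 in MSNP, for Dnajb1 in SNP100 from -0.017 to 0.068 and for Hspd1 in HMSNP from -0.038 to 0.016. Between SNP50 and SNP100 it ran from -0.41 to 0.21 for Hspa1a and -0.13 to 0.019 for Hspa1b, and between HMSNP and MSNP from -0.018 to 0.046 for Hspa8.

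Deviations of same-numbered libraries correlated at -0.518 to 0.573 over 30 pairs, median 0.0162. Those of differently numbered libraries correlated at -0.758 to 0.717 over 60 pairs, median -0.0149. The deviations were centred within groups of 3 libraries, so this check cannot exclude a shared culture or preparation. The replicate block gave 1, 3, 5 and 2 genes for SNP100, SNP50, MSNP and HMSNP against the controls, and Hspa1a in HMSNP was the call it lost (-1.39). The share of all genes called with the block is not given here, so these counts are not read as results about the set. With 3 libraries a group, a missed threshold does not show that levels were equal, and the 95% intervals give the differences left possible.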
